A study of Homo sapiens with 14 samples.

Results

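The vault RNAs VTRNA1-1, VTRNA1-2 and VTRNA1-3 are short noncoding transcripts of RNA polymerase III that lie in a row on human chromosome 5. They are the RNA part of the vault, a large cytoplasmic particle built mainly of the major vault protein MVP, and free vault RNA is known to bind regulators of autophagy. Like tRNA genes they carry an internal promoter, and its downstream element, the B box, has the same letters as the T-loop of tRNA. TRMT2A, the enzyme immunoprecipitated here, methylates the uridine that opens the T-loop of tRNA to 5-methyluridine (m5U). In catalytic crosslinking the enzyme becomes linked to its target base while it works, whereas UV links a protein to any RNA it touches. The question is how counts on the vault RNAs, which are not tRNA, compare between these ways of capture.

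The 3 genes were taken as all counted positions on the plus strand of chromosome 5 (hg19, GRCh37) from just upstream of VTRNA1-1 to nt 58 of VTRNA1-3, which gave 100 of the 63023 counted positions of the series. These positions held 687 counts on the plus strand and 0 on the minus strand, and 685 of the counts lay within 10 nt of a vault RNA. The 2 other counts lay between the genes. In the GENCODE annotation mapped to this build, VTRNA1-1 (ENSG00000199990.1) lies at chr5:140090860-140090958 and is 99 nt long, VTRNA1-2 (ENSG00000202111.1) lies at chr5:140098510-140098598 and is 89 nt long, and VTRNA1-3 (ENSG00000202515.1) lies at chr5:140105743-140105831 and is 89 nt long. They are 3 of the 64486 annotated genes. The remainder of VTRNA1-3 held 1 further count. The genes were chosen by their counts in iCLIP and FICC-Seq, so the difference between those methods is given as a description without a test.

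The study profiled RNA linked to TRMT2A in 14 libraries of 5 experiments. For iCLIP, UV light was used on HEK293 (human embryonic kidney) cells and on HAP1 (near-haploid human) cells, with 3 libraries each and an antibody to the cells' own TRMT2A. For FICC-Seq, with 3 libraries from each line and the same antibody, the cells were given 100 µM 5-fluorouracil for 24 h, after which fluorinated uridine in RNA traps the enzyme on its target, although the labels describe these samples as untreated. For miCLIP, 2 libraries came from HEK293 cells transfected with a FLAG-tagged TRMT2A whose catalytic base was mutated, which were harvested 24 h later and precipitated with an antibody to FLAG. All 3 methods thus differ in how the link was made, and miCLIP also differs in construct and antibody. The labels name no altered genotype in iCLIP or FICC-Seq. No label says that replicates were separate cultures, so the spread between libraries may be technical.

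Each library was a list of positions with a whole number of cDNAs, which had been separated from PCR copies by random barcodes. The position is the base before the cDNA, so that a UV link usually lies at the counted base and a catalytic link at the base after it. Totals ran from 7002 to 104605 counts per library, with 45.1% to 61.6% of the counts in tRNA in iCLIP, 55.6% and 57.9% in miCLIP, and 75.5% to 85.6% in FICC-Seq. Levels are given as CPM, the count scaled to a library total of 1000000 counts. Here tRNA means the clusters that the study's supplementary table types as tRNA, widened by 100 nt on either side. Any tRNA gene absent from that list counts as outside tRNA. As tRNA takes up more of a FICC-Seq library, CPM of any other RNA is lowered there by construction. Intervals on counts and shares are 95% exact intervals and cover counting error only.

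Same-numbered iCLIP libraries of the 2 cell lines shared positions. Outside tRNA, the libraries numbered 2 shared 33.9% of the HEK293 positions and 30.4% of the HAP1 positions, and those numbered 3 shared 30.4% and 32.3%, against 8.85% to 14.4% and 5.51% to 20.9% for the 6 pairs of different number. The pair numbered 1 shared 11.6% and 15.7%. On the vault RNAs, 88.9% of the positions of HEK293 library 2 were also counted in HAP1 library 2, which is 84.2% of the latter, and for the libraries numbered 3 the shares were 58.3% and 90.3%. Along VTRNA1-2, the counts of the libraries numbered 2 had a Pearson correlation of 0.88 over the 20 positions counted in either, those numbered 3 had 0.59 over 25 positions, and those numbered 1 had -0.30 over 23 positions. Different-numbered pairs ranged from -0.32 to 0.48. Libraries of the same number carry the same in-line barcode in the labels, and whether that had a part in the sharing was not tested. Values of the cell lines are therefore also given for HAP1 library 1 alone. FICC-Seq libraries 1 and 3 of HEK293 cells also have the same in-line barcode in the labels. Over 325 regions, chi-square divided by its degrees of freedom was 1.94 between them, the lowest of the replicate pairs, which reached 6.86, and they were counted as separate libraries.

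**Figure D1:**
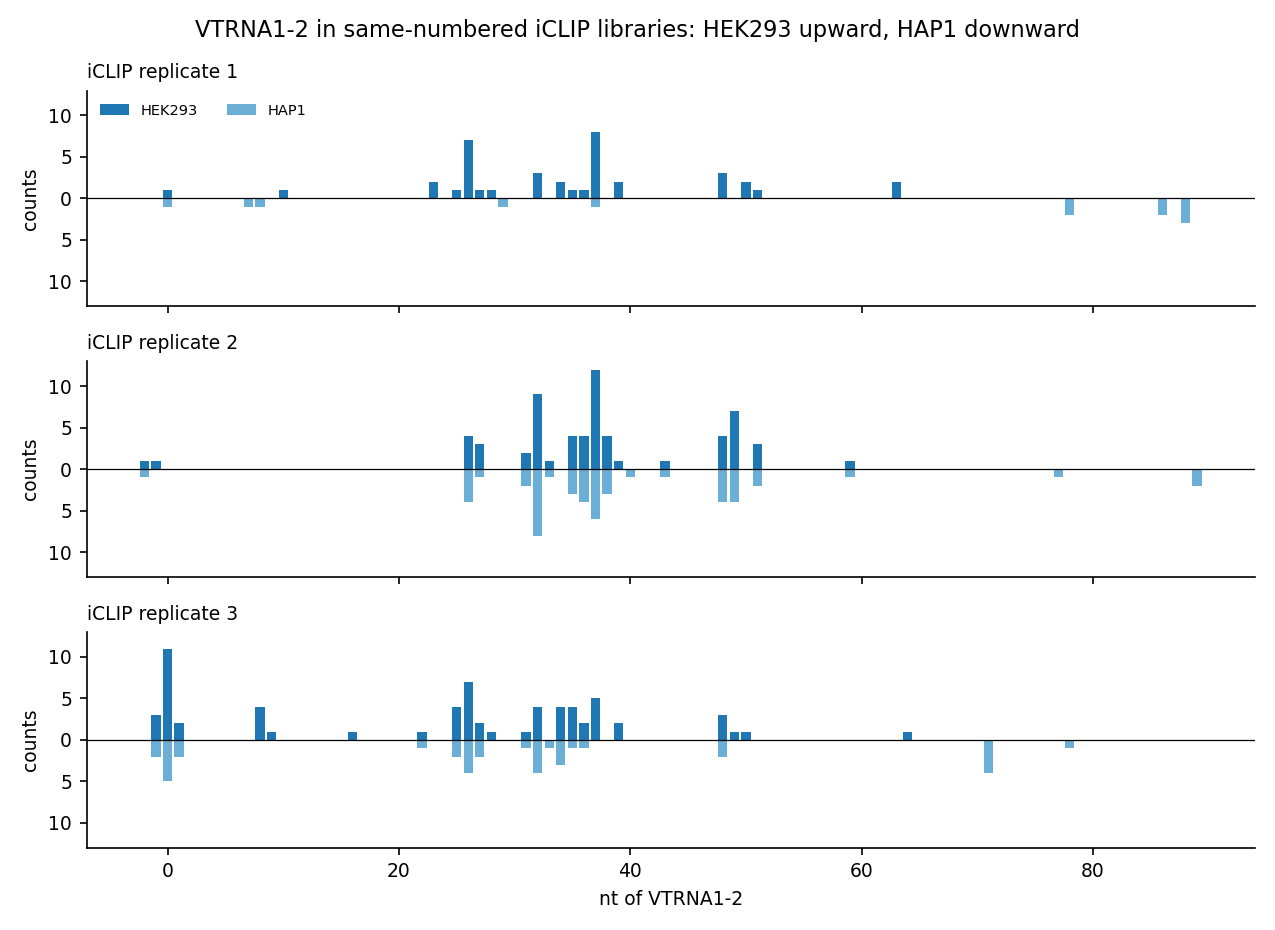
Counts along VTRNA1-2 in the iCLIP libraries, with HEK293 drawn upward and HAP1 downward, and 1 panel for each replicate number; the x axis is the nt of the RNA. The profiles of libraries 2 mirror each other at 15 shared positions, those of libraries 3 at 13, and those of libraries 1 share 2 positions.

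Within the 3 vault RNAs, 2 stretches carry the results. The stretch from nt 14 to 41 held most of the counts on VTRNA1-2 and the highest miCLIP position of that RNA, and is shown from the reference genome in 5′ to 3′ direction. Capitals mark nt 26 to 30, the bases that follow the highest miCLIP position. This mark was chosen after the values were seen.
VTRNA1-1, chr5:140090873-140090900: ctcagcggttacTTCGAcagttctttaa
VTRNA1-2, chr5:140098523-140098550: ctcagcggttacTTCGAgtacattgtaa
VTRNA1-3, chr5:140105756-140105783: ctcagcggttacTTCGCgtgtcatcaaa

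The other stretch holds the letters GTTCGA of the B box, which in tRNA span the T-loop with the methylated uridine as the second letter. It is shown, with these letters in capitals, because FICC-Seq and miCLIP counts in tRNA gather there.
VTRNA1-1, chr5:140090916-140090941: tgtctgggttGTTCGAgacccgcggg
VTRNA1-2, chr5:140098556-140098581: tctctgggtgGTTCGAgacccgcggg
VTRNA1-3, chr5:140105789-140105814: tctctgggttGTTCGAgacccgcggg

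The RNAs are close relatives. VTRNA1-1 and VTRNA1-2 were identical at 81.8% of aligned columns and over the first 30 nt, VTRNA1-1 and VTRNA1-3 at 83.0% and over 29 nt, and VTRNA1-2 and VTRNA1-3 at 87.8% and over 29 nt. Reads could still be placed, as the shortest read from a counted position that occurs only there in the genome had a median of 18 nt in VTRNA1-1 and 17 nt in the others, and at most 35 nt. From nt 25 of VTRNA1-2 the shortest such read was 17 nt.

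VTRNA1-2, the middle gene of the row, was the vault RNA with the most counts in the series. It held 39, 62 and 65 counts in the iCLIP libraries of HEK293 cells, which is 2237, 7763 and 9283 CPM. In HAP1 cells it held 12, 49 and 36 counts, or 1089, 5203 and 4480 CPM. Library 1 was the lowest of both lines, and the ranges of the lines overlapped, although HEK293 lay above HAP1 within each of the 3 same-numbered pairs. The miCLIP libraries held 32 and 137 counts, or 820 and 1310 CPM. FICC-Seq of HEK293 cells held 0, 1 and 1 counts in libraries 1, 2 and 3, and FICC-Seq of HAP1 cells held 0 in every library, where 3 counts would be 77 to 101 CPM. Every iCLIP library lay above both miCLIP libraries except HAP1 library 1, and both miCLIP libraries lay above every FICC-Seq library. HEK293 cells averaged 6428 ± 3708 CPM by iCLIP (SD, n = 3), 1065 ± 346 CPM by miCLIP (SD, n = 2) and 32.6 ± 31.4 CPM by FICC-Seq (SD, n = 3), and HAP1 cells averaged 3591 ± 2196 CPM by iCLIP (SD, n = 3). Over summed libraries, the iCLIP level was 174 times the FICC-Seq level in HEK293 cells, with a counting interval of 47.5 to 1452, and at least 119-fold higher in HAP1 cells, against a floor of 3 counts over the group. The miCLIP level was 40.1 times that of FICC-Seq in HEK293 cells, with an interval of 10.9 to 334.

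VTRNA1-1, the longest of the 3 and the form known to bind the autophagy receptor p62, held 48, 29 and 48 counts in iCLIP of HEK293 cells, or 2754, 3631 and 6855 CPM. HAP1 cells gave 24, 28 and 20 counts, or 2179, 2973 and 2489 CPM. The lines overlapped here too, with HEK293 above HAP1 in each of the 3 same-numbered pairs. In miCLIP it held 6 and 19 counts, or 154 and 182 CPM, below every iCLIP library. FICC-Seq gave 0 counts in the HEK293 libraries and 0, 1 and 0 in the HAP1 libraries. HEK293 cells averaged 4413 ± 2160 CPM by iCLIP (SD, n = 3) and 168 ± 19.7 CPM by miCLIP (SD, n = 2), and HAP1 cells averaged 2547 ± 401 CPM by iCLIP (SD, n = 3). The summed iCLIP level was at least 87.6-fold higher than FICC-Seq in HEK293 cells, and in HAP1 cells 265 times FICC-Seq, with a counting interval of 46.0 to 10602 that rests on 1 FICC-Seq count. The miCLIP level was at least 3.95-fold higher than FICC-Seq.

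VTRNA1-3, the last gene of the row, was counted over 68 nt against 119 nt of VTRNA1-1 and 109 nt of VTRNA1-2, and was sparse throughout. It held 3, 4 and 9 counts in iCLIP of HEK293 cells, or 172, 501 and 1285 CPM, and 1, 3 and 3 counts in HAP1 cells, or 90.8, 319 and 373 CPM, again lower in HAP1 within each pair. In miCLIP it held 1 and 2 counts, or 25.6 and 19.1 CPM. FICC-Seq gave 0 counts in HEK293 cells and 0, 2 and 0 in HAP1 cells. All iCLIP libraries lay above all miCLIP and FICC-Seq libraries, some by a single count. The summed iCLIP level was at least 11.2-fold higher than FICC-Seq in HEK293 cells and 12.9 times FICC-Seq in HAP1 cells, with a counting interval of 2.45 to 127.

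In each cell line the iCLIP and FICC-Seq libraries did not overlap for 3 of 3 vault RNAs. Of the 1113 regions with at least 15 counts, 13.8% had every iCLIP library above every FICC-Seq library in HEK293 cells and 14% in HAP1 cells. As these values chose the genes, nothing is read from the count. Both miCLIP libraries also lay above every FICC-Seq library of HEK293 cells for all 3, as they did for 41.1% of regions, a common pattern that for VTRNA1-3 rests on 3 miCLIP counts.

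**Figure D2:**
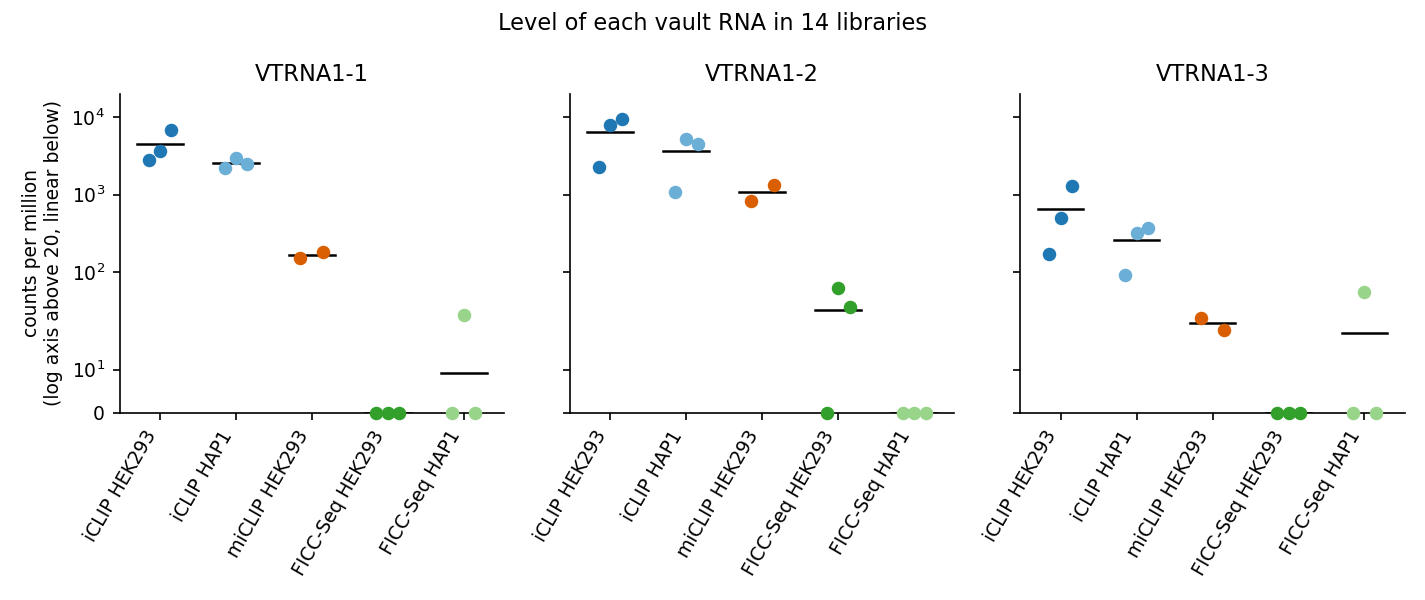
Level of each vault RNA in CPM, with a log axis above 20 and a linear axis below it; points are the 14 libraries by experiment and lines are means. For VTRNA1-2 the means fall from 6428 in iCLIP of HEK293 to 1065 in miCLIP and 32.6 in FICC-Seq of HEK293.

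The ratio of VTRNA1-2 to VTRNA1-1 was higher in miCLIP than in iCLIP. Per counted nt, VTRNA1-2 held 0.887, 2.33 and 1.48 times the counts of VTRNA1-1 in iCLIP of HEK293 cells and 0.546, 1.91 and 1.97 times in HAP1 cells, below 1 in library 1 of both lines. In miCLIP the ratio was 5.82 and 7.87, above all 6 iCLIP libraries. VTRNA1-2 made up 82.1% of the vault RNA counts of miCLIP library 1 (95% interval 66.5% to 92.5%) and 86.7% of library 2 (80.4% to 91.6%), against 32.4% to 65.3% in iCLIP. VTRNA1-3 stayed between 0.0729 and 0.328 times VTRNA1-1 per counted nt in iCLIP and miCLIP. These ratios were computed after the values were seen and carry no test.

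Cell lines were compared within iCLIP to ask whether contact with TRMT2A differed between them. None of the 3 vault RNAs passed in the limma fit over all 1113 regions, of which 1.26% were called higher in HEK293 and 3.68% lower. On the scale of log2(CPM + 100), HEK293 minus HAP1 in limma was 0.68 for VTRNA1-1 (standard error 0.34, adjusted p = 0.356), 0.86 for VTRNA1-2 (standard error 0.60, adjusted p = 0.553) and 0.86 for VTRNA1-3 (standard error 0.54, adjusted p = 0.501). The 95% intervals were wide, from -0.06 to 1.41, from -0.45 to 2.16 and from -0.31 to 2.03, so levels more than 2-fold higher in HEK293 cells lie within all 3 intervals. With HAP1 library 1 as the only HAP1 library, assumed to vary like the others, the differences were 0.88, 2.23 and 1.68, with adjusted p of 0.444, 0.113 and 0.270 in limma. With the replicate number as a block over all experiments, the adjusted p in limma were 0.325, 0.348 and 0.406. No label says that the numbers mark pairs. Cell line and library run go together in the file headers and cannot be told apart.

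The miCLIP libraries were compared with iCLIP in HEK293 cells, where TRMT2A was captured by its own reaction in the former and by UV in the latter. The genes had been chosen by their iCLIP counts, which form an arm of this comparison, so the differences are a description and no p is given. On the log2(CPM + 100) scale of the same fit, miCLIP minus iCLIP was -3.97 for VTRNA1-1 (standard error 0.38), -2.29 for VTRNA1-2 (standard error 0.67) and -2.32 for VTRNA1-3 (standard error 0.60). The median of all regions was 0.24 on that scale. Each miCLIP library lay below each of the 3 iCLIP libraries for all 3 RNAs, which held for 14.4% of regions. In the limma fit 12.7% of regions were called lower and 27.0% higher, and the 3 vault RNAs were among those lower, from which nothing is read. Without a filter on low counts, 0 of the 3 were called. With either miCLIP library left out, 1 of the 3, VTRNA1-1, was called, but the miCLIP arm was then a single library that was assumed to vary like the other groups.

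Along VTRNA1-2, iCLIP and miCLIP counts lay at different bases. The iCLIP counts of HEK293 cells were highest at nt 37, with 8, 12 and 5 counts, and at nt 26, with 7, 4 and 7. They were next highest at nt 32, with 3, 9 and 4 counts. In HAP1 cells the counts were 1, 6 and 0 at nt 37, 0, 4 and 4 at nt 26, and 0, 8 and 4 at nt 32, with the zeros of nt 26 and 32 in library 1. Library 3 of both lines had its highest count at nt 0, the base before the annotated start, with 11 and 5 counts. Counts at nt 0 are those of cDNAs that reach the 5′ end of the RNA.

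The highest position of the larger miCLIP library was nt 25, with 44 of 137 counts (32.1%, 95% interval 24.4% to 40.6%), and nt 25 held 6 of 32 counts (18.8%, 7.21% to 36.4%) in the smaller. In the iCLIP libraries nt 25 held 1, 0 and 4 counts in HEK293 and 0, 0 and 2 in HAP1 cells, or at most 6.15%. The smaller miCLIP library had its highest count at nt 16, with 10 of 32 (31.3%, 16.1% to 50.0%), and the larger had 16 of 137 there (11.7%, 6.82% to 18.3%). Only 1 iCLIP count lay at nt 16, in HEK293 library 3. At nt 32 and at nt 37 both miCLIP libraries held 0 counts, which by the floor of 3 counts allows up to 9.38% of the counts of the smaller and 2.19% of the larger. At nt 26 itself, where iCLIP had 18 counts in HEK293 cells, miCLIP had 3 and 2.

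**Figure D3:**
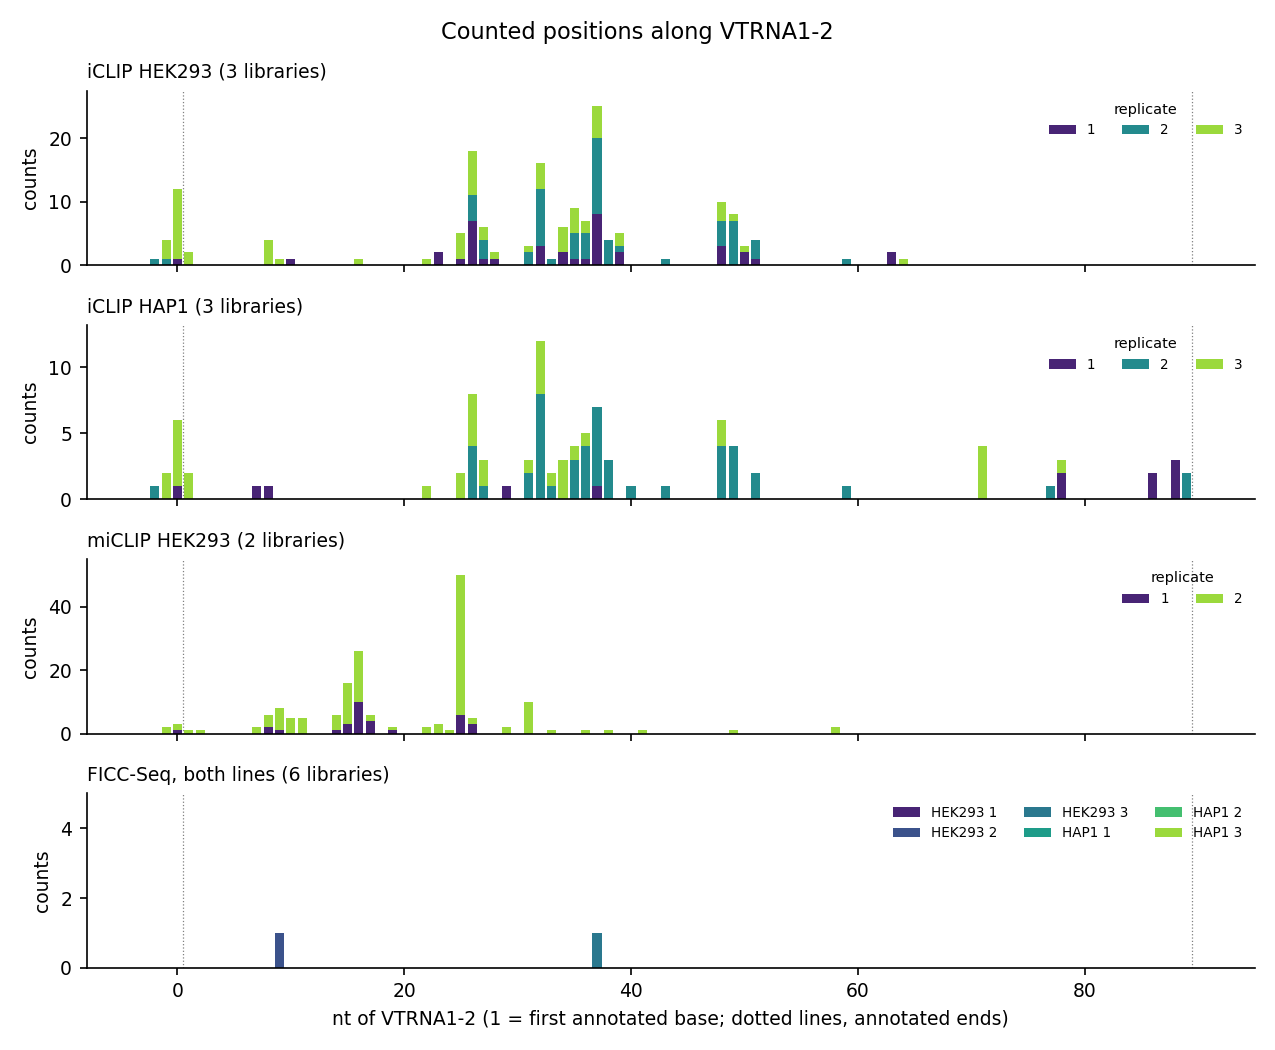
Counts at each nt of VTRNA1-2, stacked by replicate, for iCLIP of HEK293 and HAP1 cells, miCLIP and FICC-Seq; y axes differ. The miCLIP counts peak at nt 25 with 50 counts in all and at nt 16 with 26, and the iCLIP counts of HEK293 peak at nt 37 with 25.

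Broader measures along VTRNA1-2 gave the following. The stretch of nt 1 to 20 held 68.8% (95% interval 50.0% to 83.9%) and 45.3% (36.7% to 54.0%) of the miCLIP counts, and 0% to 16.7% of the counts of an iCLIP library. The counted base, where a UV link usually lies, was T for 50.0% to 75.0% of iCLIP counts and for 25.0% and 31.4% of miCLIP counts, with T at 31.5% of the bases of VTRNA1-2. The base after it, where a catalytic link lies, was T for 40.6% and 62.0% of miCLIP counts and for 37.1% to 50.0% of iCLIP counts, so that 1 miCLIP library lay within the iCLIP range and 1 above it. A window of nt 21 to 35 covers clusters the study listed from these libraries, and was thus chosen on these samples. The share in it averaged 42.1 ± 4.61% for HEK293 iCLIP (SD, n = 3), 33.3 ± 22.7% for HAP1 iCLIP (SD, n = 3) and 37.8 ± 13.7% for miCLIP (SD, n = 2). The median counted nt averaged 32.7 ± 5.86, 48 ± 26.3 and 19.5 ± 4.95 over the same libraries. The 2-sided exact permutation test gave p = 0.8 for the share and p = 0.5 for the median between the cell lines, and p = 0.7 and p = 0.2 between iCLIP of HEK293 and miCLIP, with an adjusted p of 0.8 for each of the 4 tests. The smallest p these numbers of libraries allow is 0.1, so no test could reach 0.05 and nothing is read from them.

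HAP1 library 1 stood apart on VTRNA1-2. Of its 12 counts, 7 lay at nt 52 or later, which is 58.3%, and its highest position was nt 88. The other iCLIP libraries had 1.54% to 13.9% there. The miCLIP libraries had 0 of 32 and 2 of 137 counts there. Without that library, the share in nt 21 to 35, HEK293 minus HAP1, was -3.67 percentage points in place of 8.81 points. The HAP1 libraries then left are those numbered 2 and 3. Of their vault RNA positions, 84.2% and 90.3% were also counted in the HEK293 library of the same number.

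**Figure D4:**
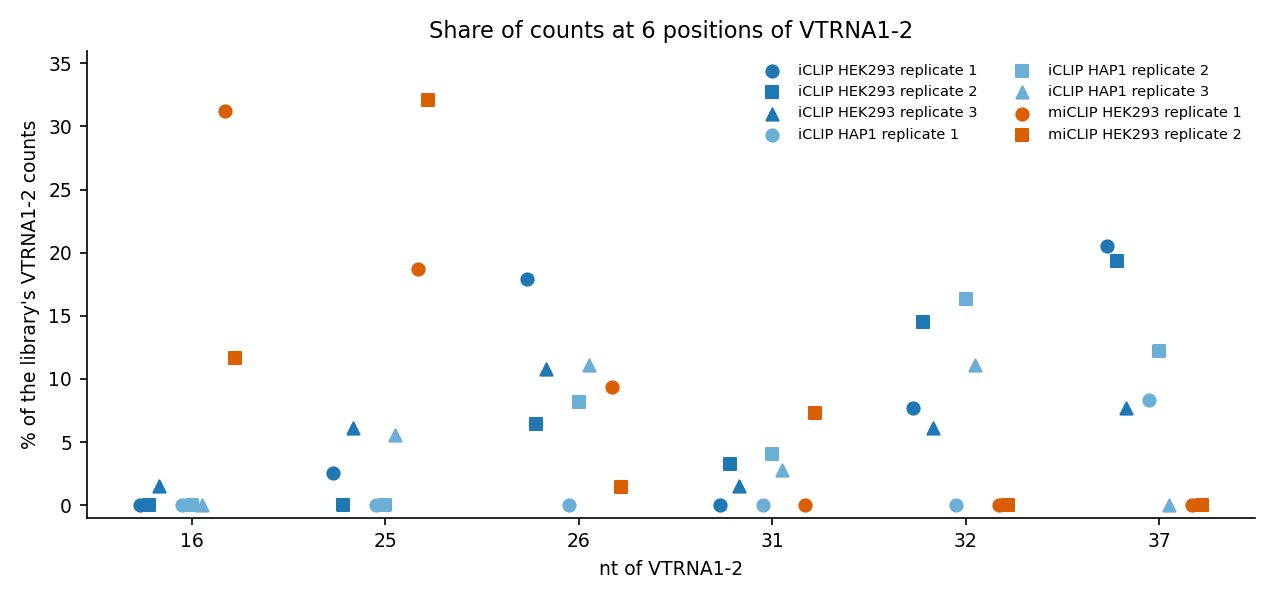
Share of a library's VTRNA1-2 counts, in percent, at 6 positions chosen after the values were seen; colours are experiments and symbols are replicates. At nt 25 both miCLIP libraries, at 18.8% and 32.1%, lie above all iCLIP libraries, and at nt 32 and nt 37 both lie at 0.

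On VTRNA1-1 the iCLIP counts gathered further along than nt 25. The stretch from nt 36 to 42 held 54 of 125 counts in HEK293 cells and 37 of 72 in HAP1 cells, and nt 9 and 10 held 20 and 6 counts. The median counted nt was 38, 38 and 36 in HEK293 and 38, 40.5 and 37 in HAP1 cells. In miCLIP it was 33.5 and 33, below every iCLIP library, from 6 and 19 counts. Downstream of nt 51, iCLIP held 15 counts in HEK293 and 11 in HAP1 cells, and miCLIP held 0 of 25.

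The position followed by the same letters as nt 25 of VTRNA1-2 was thinly counted on VTRNA1-1. Over the first 30 nt the sequences are the same, with TTCGA at nt 26 to 30 in both, yet nt 25 held 1 of 25 miCLIP counts on VTRNA1-1 against 50 of 169 on VTRNA1-2. VTRNA1-3, which has TTCGC there, held 1 of 3 miCLIP counts at nt 25. After nt 30 the sequences of VTRNA1-1 and VTRNA1-2 part.

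**Figure D5:**
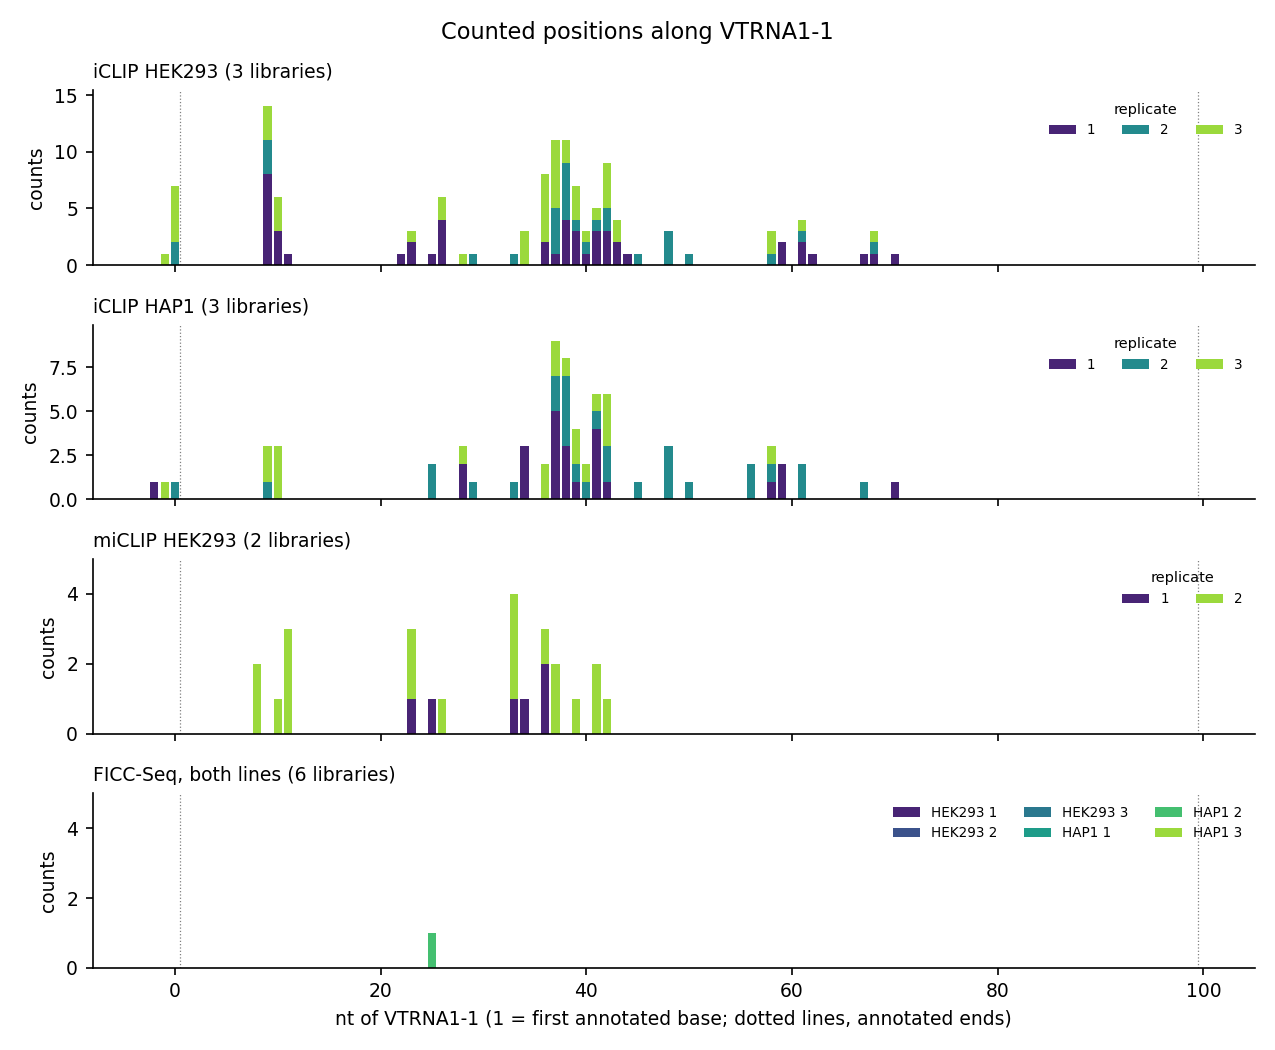
Counts at each nt of VTRNA1-1, stacked by replicate, for iCLIP of HEK293 and HAP1 cells, miCLIP and FICC-Seq; y axes differ. In iCLIP, nt 36 to 42 hold 54 counts in HEK293 and 37 in HAP1 cells, and miCLIP has no peak at nt 25.

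All 5 FICC-Seq counts on the vault RNAs can be placed. Those on VTRNA1-2 lay at nt 9 and nt 37 in HEK293 cells, 1 count each, and that on VTRNA1-1 at nt 25 in HAP1 cells. VTRNA1-3 had 2 counts at nt 29 in 1 HAP1 library. None lay in the letters GTTCGA, and 5 counts cannot show where FICC-Seq counts would gather.

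The letters of the T-loop were a place of few counts on the vault RNAs in any method. The letters start at nt 67 of VTRNA1-1 and nt 57 of VTRNA1-2 and VTRNA1-3. At the first letter, where a link to the uridine that follows would be counted, the 3 RNAs together held 1 count in iCLIP of HEK293, 1 in iCLIP of HAP1, and 0 in miCLIP and FICC-Seq. The second letter held 3 iCLIP counts on VTRNA1-1 in HEK293 cells and 2 miCLIP counts on VTRNA1-2, and the last letter held 0 on these RNAs. For VTRNA1-3 the counted stretch ended at the second letter. In the tRNA regions, by contrast, with 245 sites of the letters GTTCGA or GTTCAA, the first letter held 42.2% to 52.7% of the counts of FICC-Seq in HEK293 cells and 40.2% to 44.1% in HAP1 cells. It held 28.0% and 33.7% in miCLIP and 2.99% to 8.71% in iCLIP. A read that starts after nt 57 of VTRNA1-2 needs 21 nt to be placed only there, and one after nt 67 of VTRNA1-1 needs 26 nt.

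Outside the listed tRNA clusters, other positions followed by the letters TTCGA were counted too. Of 580 miCLIP positions with at least 10 counts, 72 (12.4%) were followed directly by TTCGA, as were 17 of 180 (9.44%) in FICC-Seq of HEK293 and 21 of 309 (6.80%) in FICC-Seq of HAP1. In iCLIP it was 0 of 153 positions in HEK293 and 0 of 99 in HAP1 cells. Among positions 1 to 20 nt to either side, the share was 0.470% in miCLIP and 0.146% to 0.227% in the other experiments. TTCGA, read on the strand of the counts, occurred within 89 nt around 12.5% of the 767 regions outside tRNA, and GTTCGA or GTTCAA, which overlap it, around 18.3%. The letters were chosen after the counts at nt 25 of VTRNA1-2 were seen, and that position is itself among the 72 of miCLIP. The shares are a description without a test. The base before TTCGA, C at nt 25 of VTRNA1-2, was not checked at the other positions. They can therefore include the first letter of GTTCGA, also in tRNA genes absent from the study's list. The share of such positions was not tested.

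The predicted folds place the start of the T-loop letters in a stem. Minimum free energy folds had -35.2 kcal/mol for VTRNA1-1 and -34.9 kcal/mol for both other RNAs, and the first 2 letters of GTTCGA were paired in all 3. In VTRNA1-2, nt 25, 31, 32 and 37 were unpaired and nt 16 and 26 paired. Of the counts inside VTRNA1-2, 77.9% of those of iCLIP in HEK293, 76.1% in HAP1 and 61.0% of those of miCLIP lay on unpaired bases, which make up 39.3% of the RNA. On VTRNA1-1 the shares were 65.8%, 62.3% and 64%, against 35.4% of bases. For the base after the counted one, where a catalytic link lies, 43.1% of miCLIP counts on VTRNA1-2 and 56% on VTRNA1-1 were unpaired. On VTRNA1-2 the paired nt 26 follows nt 25, which held 50 of 169 miCLIP counts, against 1 of 25 on VTRNA1-1. In iCLIP the base after was unpaired for 68.3% in HEK293 and 63.0% in HAP1 on VTRNA1-2. On VTRNA1-1 the iCLIP shares were 52.4% and 48.6%, below that of miCLIP, so the order of the methods differed between the RNAs. These folds are predictions for naked RNA.

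Other genes of vault RNA name, vault proteins and partners were thinly counted. Of 5 such genes other than partners, VTRNA2-1 and VTRNA3-1P, listed by their name alone, and MVP had 0 counts in all libraries. TEP1, the telomerase-associated vault protein, had 1 count in iCLIP of HEK293 and 3 in miCLIP, and PARP4, the vault poly(ADP-ribose) polymerase, had 1 in miCLIP and 1 in FICC-Seq of HAP1. Of the mRNAs for 5 partner proteins, SSB, which encodes the La protein that binds newly made transcripts of RNA polymerase III, had 0 counts throughout. NSUN2, the cytosine methyltransferase of vault RNA, had 1 count in iCLIP of HAP1 and 3 in miCLIP. SRSF2, a splicing factor, had 10, SQSTM1, which encodes p62, had 4, and DUSP11, an RNA triphosphatase, had 1, all in miCLIP. These are raw counts, and the miCLIP libraries together held 143629 counts against 32421 in iCLIP of HEK293 and 28469 in iCLIP of HAP1.

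Among the listed other transcripts of RNA polymerase III, a list that leaves out tRNA, none had as many iCLIP counts as VTRNA1-2 or VTRNA1-1. The vault RNAs were chosen by their iCLIP counts, so nothing is read from this order. Of 16 listed, 14 had a gene of that name in the annotation, and 5 had 0 counts throughout, namely RNU6-2, RNU6-7, RNU6-8 and RNU6-9, which code for U6 RNA, and BCYRN1. RN7SK, which binds an elongation factor of transcription, had 8, 3, 37, 0 and 2 counts in iCLIP of HEK293, iCLIP of HAP1, miCLIP, FICC-Seq of HEK293 and FICC-Seq of HAP1, in that order. RNY1, a Y RNA that binds the Ro60 protein, had 23, 10, 22, 0 and 0, and RMRP, the RNA of RNase MRP, had 12, 11, 9, 0 and 0. RNU6ATAC, of the minor spliceosome, had 7 and 5 counts in iCLIP and 0 in the other experiments. RNY5 had 2, 5, 2, 0 and 0, RNY4 had 3, 0, 1, 1 and 0, RN7SL2 had 2, 1, 1, 0 and 0, and RNY3 and RNU6-1 had at most 1 in any experiment. For all these genes the FICC-Seq counts were 2 or fewer per cell line. These are raw counts and are not scaled to depth. The summed totals of the experiments, in the order given for RN7SK, were 32421, 28469, 143629, 68132 and 104694. Only reads that mapped uniquely were kept, and whether reads of these genes can be placed was checked for the vault RNAs alone. A part of mapping in the low counts of the listed genes was not tested.

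Among 412 regions outside tRNA with at least 30 counts, the 5 whose log2(CPM + 100) over the 14 libraries was most like that of VTRNA1-2 were named by Pearson correlation. VTRNA1-1 had the highest, at 0.94. It was followed by a region of the U2 RNA gene copy RNU2-2P at chr11:62609143-62609245 (0.94) and a region in LINC00324 at chr17:8124193-8124213 (0.93). The other 2, on the minus strand at chr6:28909390-28909401 and chrX:47662096-47662168, had 0.91 each. No gene of the annotation used lies on that strand at their highest position. Whether the regions named here lie in tRNA genes absent from the study's list was not checked. Like VTRNA1-2, the RNU2-2P region was high in iCLIP, at a mean of 4323 CPM in HEK293 and 1713 CPM in HAP1, and low in FICC-Seq, at 11.7 and 0 CPM. The correlations are a description over 14 libraries that share methods, and VTRNA1-3, with fewer than 30 counts, was not ranked.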

How the data were processed

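TRMT2A-linked RNA was measured in 14 libraries grouped by cell line and method as the labels give them. Per the file headers and the study's methods, the authors trimmed adaptors, removed PCR copies by 5 random barcode bases, mapped reads to hg19 and kept those that mapped uniquely. The deposited score is a whole number of cDNAs per position, negative on the minus strand, and was not scaled to depth. The sign was removed here and used as the strand. The count models first planned were not run, although the values without their sign are whole-number counts, and limma 3.58.1 was used instead.

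Positions at most 20 nt apart were joined into regions, vault RNAs were taken by annotation with 10 nt on either side, and the 1113 regions with at least 15 counts over all libraries were fitted as log2(CPM + 100) with lmFit and eBayes (trend), 1 mean per experiment, library totals and Benjamini-Hochberg adjustment over all regions at a threshold of 0.05. The adjustment and the fit ran across all regions. On simulated counts over 1034 regions, 177 of them changed, 4-fold changes were recovered at 29.2% and 8-fold changes at 62.5% between cell lines. There 22 of 857 unchanged regions were called, a larger share of all calls than the threshold of 0.05 allows. The simulation took 1 mean per region over all experiments and a fixed spread, unlike the data. Between miCLIP and iCLIP these shares were 14.6% and 52.3%, with 2 of 857 called. Shares of counts have exact Clopper-Pearson intervals. Random barcodes of 5 bases can run short at very high positions, which would lower counts there. Folds were predicted with RNAfold 2.7.2, and sequences were read from the GRCh37 genome. Library totals of 7002 to 104605 make 3 counts worth 28.7 to 428 CPM.

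The members, the lists and the rule for named genes were chosen with earlier results of these data known. Named are the 3 vault RNAs, lists of genes of vault RNA name and vault proteins, partners and RNA polymerase III transcripts, and 5 regions. Those 5 regions are outside the study's listed tRNA clusters, have at least 30 counts and are the most correlated with VTRNA1-2. Same-numbered iCLIP libraries of the cell lines deviated together (correlations of 0.22, 0.25 and 0.21 for numbers 1, 2 and 3). They also carry the same in-line barcode and no label says that they were made together, so the numbers need not mark pairs. Between iCLIP and FICC-Seq of HEK293 the same-numbered values were 0.14, 0.07 and -0.13, and the block covered these libraries too. Alternatives covered the scale, normalization, filter, region bounds, replicate block and each library left out.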

Additional observations from a re-analysis of the deposited data

How the results depend on the processing

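The miCLIP to iCLIP difference kept its direction for each vault RNA under every alternative that gave a value (VTRNA1-3 had too few counts for the stricter filter), from -4.39 to -2.99 for VTRNA1-1, from -2.53 to -1.94 for VTRNA1-2 and from -3.92 to -1.18 for VTRNA1-3 with all libraries in. Without a filter on low counts the values were -3.97, -2.29 and -2.32 and 0 of the 3 were called. Leaving out each library gave -4.25 to -3.61, -2.91 to -1.91 and -2.90 to -1.72. Regions called then ranged from 135 to 309 higher and from 73 to 173 lower in miCLIP, and from 9 to 38 higher and from 33 to 45 lower in HEK293 against HAP1. Of the regions called in miCLIP against iCLIP, 68.1% were higher in the fit reported, against 39.1% with voom and 81.6% with no filter, and the median of all regions was 0.24, 0.35 when scaled by the median of ratios, -0.09 with voom, 0.41 with a smaller pseudocount and 0.09 with a larger. With voom, 21 regions were lower in HEK293 than HAP1 and 384 lower in miCLIP. With at least 30 counts, 7 were higher in HEK293, and with no filter 55 were lower in miCLIP, and 39.6% of calls between the lines were higher in HEK293, against 25.5%. With the replicate number as a block, VTRNA1-2 had 0.86 between the lines (limma adjusted p = 0.348) and -2.12 in miCLIP, and the block changed no call of a vault RNA. Counted outside tRNA alone, mean CPM for iCLIP of HEK293, iCLIP of HAP1 and miCLIP was 9867, 6001 and 389 for VTRNA1-1, 14908, 8800 and 2478 for VTRNA1-2, and 1486, 634 and 51.5 for VTRNA1-3. FICC-Seq had 41.8 for VTRNA1-1 and 83.6 for VTRNA1-3 in HAP1, and 213 for VTRNA1-2 in HEK293. Without positions of a single count, VTRNA1-1 had 1757 CPM in iCLIP of HAP1 and 92.5 in miCLIP, VTRNA1-3 had 70.8 and 0, and VTRNA1-2 had 0 in FICC-Seq of HEK293. The share in nt 21 to 35 of VTRNA1-2, HEK293 iCLIP minus miCLIP, turned to -0.957 percentage points in a window 5 nt wider on either side and ranged from -5.34 (without miCLIP library 1) to 14 when each library was left out, and HEK293 minus HAP1 ranged from -3.67 (without HAP1 library 1) to 18.6. The causes were not tested. The planned count models were not run, and voom, library weights, other scalings, pseudocounts and the comparison with HAP1 library 1 alone were chosen after seeing the data. At 3 to 169 counts per vault RNA in an experiment of iCLIP or miCLIP, positions of a few counts have no order.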
